A study of Mus musculus with 7 samples.

Results

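The collagen family of the mouse mammary gland was followed through all probes on the array whose gene name had the form Col, a number, a and a number, control probes excluded. This gave 91 of the 56605 probes, for 44 collagen genes. The glands came from nulliparous FVB females of 20 to 25 weeks, all taken at diestrus, with 3 wild-type animals and 4 PRA transgenic animals. PRA transgenic mice are bigenic: a CMV-GAL-4 transgene, expressed from the cytomegalovirus promoter, drives a UAS-PR-A transgene that adds to their own progesterone receptor gene. That promoter is not specific to 1 cell type of the gland. From each animal 1 abdominal gland, freed of lymph nodes, was labeled with Cy5 and hybridized to 1 array with Universal Mouse Reference RNA, a pool from 11 mouse cell lines, in Cy3.

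Collagens are secreted proteins of 3 chains wound into a triple helix, in which glycine recurs once per 3 residues because no larger side chain fits inside it. Fibrillar collagens build the cable-like fibrils that surround the ducts and the fat, fibril-associated collagens coat those fibrils, network-forming collagens make basement membranes, and the remaining classes form beaded filaments, anchoring fibrils, hexagonal lattices or span the cell membrane. In the mammary gland fibroblasts make most of the fibrillar collagen, while epithelium, endothelium, fat cells and nerves lie on basement membranes rich in type IV collagen. Chains are hydroxylated, glycosylated and folded in the endoplasmic reticulum, trimmed outside the cell and cross-linked by lysyl oxidases.

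The signature of the triple helix could be read in some of the probes themselves. The probes below are shown because the glycine repeat identifies them as lying in the helical coding part of the gene. Each is 60 bases long and written 5′ to 3′ as it stands in the files, with capitals for the glycine codons, which recur once per 3 codons in a reading frame without a stop.
Col5a3: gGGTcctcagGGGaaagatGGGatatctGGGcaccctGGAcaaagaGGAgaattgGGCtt
Col15a1: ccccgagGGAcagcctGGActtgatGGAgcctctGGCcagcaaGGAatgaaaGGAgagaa
Col6a3: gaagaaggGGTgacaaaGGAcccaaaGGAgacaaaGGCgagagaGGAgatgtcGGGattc
Col11a2: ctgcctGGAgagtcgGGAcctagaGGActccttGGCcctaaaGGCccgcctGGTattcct
On mm9, the build of the files, they lie at chr9:20590066-20590795 (Col5a3, minus strand), chr4:47283786-47283845 (Col15a1, plus strand), chr1:92689602-92690594 (Col6a3, minus strand) and chr17:34189287-34189453 (Col11a2, plus strand). The spans of 730, 993 and 167 bases for Col5a3, Col6a3 and Col11a2 are longer than the probe, so these probes cross at least 1 exon junction. The pattern was held by these 4 of the 91 collagen probes (4.4%) and by 9 of all 56605 probes (0.0159%). Other collagen probes lie outside such a repeat or hold it in part, and their place in the transcript was not analysed here.

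Values are log2 ratios of gland over reference, so that 0 is the level of the reference and 1 is 2-fold above it. A probe was tested when the scanner software marked its Cy5 spot as well above background throughout 1 genotype or both. Of the 91 collagen probes 61 met this and 30 did not. Of the 61, 51 were above background in Cy5 on all 7 arrays, 7 passed through the wild-type arrays alone and 3 through the PRA transgenic arrays alone. Where the reference was dim (14 of the 61 probes, on all 7 arrays), the ratio rests on a denominator near background, and for the probes named singly the change in Cy5 alone is given beside it. The 6 collagen genes Col10a1, Col19a1, Col24a1, Col28a1, Col4a3 and Col6a6 had no probe that could be tested, and their Cy5 signal was above background on at most 2 arrays. The remaining 38 genes are each represented by their brightest probe in Cy5.

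Markers of the labeled tissue were present. All 8 luminal, all 8 basal, all 8 white adipocyte and all 10 fibroblast markers were well above background on all 7 arrays. Skeletal muscle markers differed between animals, with a list mean (log2 ratio) of 2.41, -0.25 and 3.44 in wild-type and 0.12, -0.14, -0.04 and 3.12 in PRA transgenic animals. The list means of the other cell types overlapped between the genotypes, luminal epithelium at 3.05 to 3.62 and 2.91 to 3.40, white adipocytes at 5.19 to 5.50 and 5.26 to 5.86, macrophages at 1.42 to 1.74 and 1.23 to 2.28, and Schwann cells at 1.63 to 1.94 and 1.57 to 2.23 in wild-type and PRA transgenic arrays. Of 67 marker genes tested 1 reached P under 0.05 and 1.5-fold, the endothelial Emcn, named after its values were seen (log2 fold change 0.78, limma adjusted p = 0.330). Of the 8 white adipocyte markers 7 had a positive and 1 a negative log2 fold change (median 0.15), against 52.7% positive of all genes. For 2 of the 8 every PRA transgenic value was above all wild-type values, against 4.59% of all genes. Across all probes 62.7% to 66.2% were above background in Cy5 on the wild-type arrays and 56.7% to 60.2% on the PRA transgenic arrays, and for the constant Cy3 reference 53.3% to 54.0% and 47.2% to 50.6%. Among the 91 collagen probes 61 to 66 and 57 to 64 were above background in Cy5. All arrays were on 1 slide, wild-type in row 1 and PRA transgenic in row 2, so that row cannot be told apart from genotype. The progesterone receptor gene itself, Pgr, ranged from 4.04 to 7.05 in wild-type and from 3.32 to 5.38 in PRA transgenic glands, with a log2 fold change of -0.65 and a standard error of 0.80. Whether its probes detect the transgene was not analysed here.

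Measured against the cell lines of the reference, most collagen genes tested had a ratio above 0. Probes were kept and chosen by the gland signal alone, which favors ratios above 0, and the share of all genes above 0 was not computed. For 27 of the 38 genes both genotype means lay above 0, for 7 both lay below 0, and for 4 they differed in sign. All 4 transmembrane collagen genes, both multiplexins and 9 of the 10 fibrillar genes were above the reference in both genotypes, as were 4 of the 5 basement membrane genes. For the 4 transmembrane genes, the multiplexin Col15a1, Col4a4, Col6a5, Col9a1 and Col26a1 the reference was dim on all 7 arrays. Their ratios thus rest on a denominator near background. Both hexagonal network genes, Col8a1 and Col8a2, lay below the reference, with 3 of the 8 fibril-associated genes.

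Between the genotypes few collagen genes differed. With an unadjusted P under 0.05 and at least 1.5-fold as the threshold, 4 of the 38 genes passed (10.5%, against 4.06% of all 22503 genes tested by their brightest probe). Of these 3 were higher in PRA transgenic glands, Col6a5, Col8a2 and Col20a1 (7.89%, against 1.52% of all genes), and 1 was lower, Col12a1 (2.63%, against 2.55%). Col8a2 entered the test only through the PRA transgenic arrays, where it was higher, so it is no support for these shares. With Cy5 above background required on all 7 arrays, 2 of 34 genes were higher and 1 was lower. In that fit 1055 of all 30210 probes passed in either direction. The share of all genes in each direction was not computed there. After Benjamini-Hochberg adjustment over all 34288 probes 0 collagen probes passed 0.05 by limma, and 0 by the methods' t-test, while 6 of the 61 had an unadjusted limma P under 0.05 (against 9.02% of all probes). By brightest probe 5 genes did (13.2%, against 7.95%). The lowest adjusted p was 0.379, and 4 of all probes (0.0117%) passed. The genotypes did not overlap for 5 genes (13.2%, against 9.09% of all genes), with every PRA transgenic value of Col6a5 and Col20a1 above all wild-type values (5.26%, against 4.59%) and every one of Col12a1, Col3a1 and Col2a1 below them (7.89%, against 4.5%). With 38 genes, each of these shares rests on a handful of members.

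The family moved in both directions. Its log2 fold changes, PRA transgenic minus wild-type, ran from -0.95 for Col9a1 to 1.59 for Col6a5, with 17 positive (44.7%, against 52.7% of all genes) and 21 negative. Over all 38 genes the median was -0.09 too, beside 0.01 over all genes tested. It was negative under 13 of 18 other settings and positive under 5, quantile normalization (0.00285) and the Cy5 channel alone (0.0143) included. The typical difference was smaller than the spread between single animals, with a median absolute log2 fold change of 0.37 and a median within-genotype SD of 0.44. That SD is not the standard error of a difference between means, so the comparison is descriptive.

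**Figure D1:**
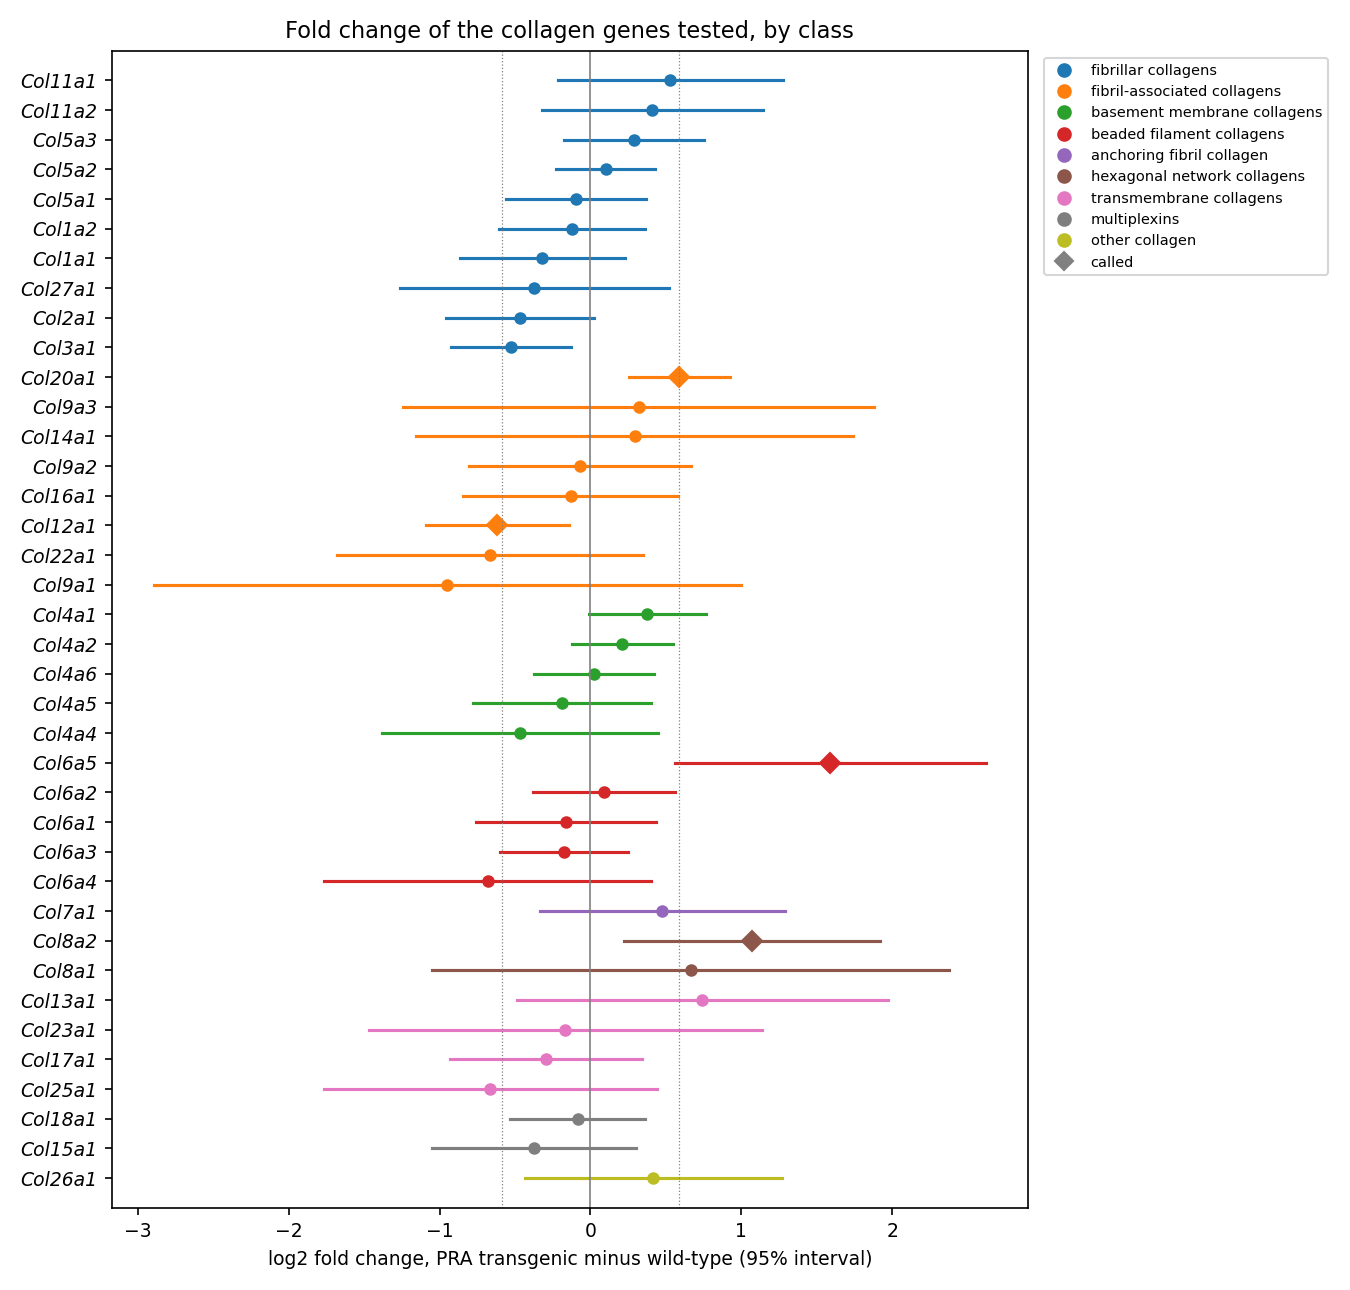
Log2 fold change of the 38 collagen genes tested, PRA transgenic minus wild-type (x axis, brightest probe of each gene), with 95% intervals from limma, grouped and colored by structural class. Diamonds mark the 4 genes at P under 0.05 and 1.5-fold, dotted lines mark 1.5-fold either way, and the intervals of 5 genes exclude 0.

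Col6a5, which encodes a chain of the type VI family that can take the place of the alpha 3 chain in beaded filaments, had the largest change of the 38 genes. Its log2 ratio was 2.91, 2.31 and 2.56 in wild-type and 3.38, 3.56, 4.89 and 4.91 in PRA transgenic glands. Every PRA transgenic array was above every wild-type array, and within the PRA transgenic animals replicates 3 and 4 stood more than 1 log2 unit above replicates 1 and 2. The log2 fold change was 1.59 (3.01-fold, standard error 0.44, 95% interval 0.56 to 2.62, unadjusted P = 0.00801, limma adjusted p = 0.412). The probe lies at chr9:105759441-105759500 on the minus strand of mm9. It was above background in Cy5 on all 7 arrays and in the reference on 0. In Cy5 alone the change was 1.52, and after normexp background correction 0.96. With each array left out in turn it ran from 1.35 to 1.86 and passed the threshold each time.

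A second Col6a5 probe, printed here because it measures the same gene at another place, spans 1360 bases of the genome (chr9:105765145-105766504, minus strand) and so crosses an exon junction of the spliced transcript.
Col6a5: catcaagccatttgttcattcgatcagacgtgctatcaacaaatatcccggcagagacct
Its log2 ratio was 2.61, 1.45 and 1.40 in wild-type and 2.09, 2.90, 2.09 and 4.07 in PRA transgenic glands. Replicate 4 was again the highest and wild-type replicate 1 lay among the PRA transgenic values, so the groups overlapped. The log2 fold change was 0.97 (standard error 0.55, limma adjusted p = 0.656), and Cy5 alone changed by 2.13. Its Cy5 spot was bright enough on 2 of 3 wild-type and all 4 PRA transgenic arrays, and its reference spot on 0. It passed the filter only through the PRA transgenic arrays, so its direction is no support for the brightest probe. The third probe of the gene was above background on no array.

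Col8a2 encodes a chain of type VIII collagen, the short-chain collagen of hexagonal lattices that is best known from the corneal endothelium and the wall of vessels. Its log2 ratio was -0.95, -1.56 and -1.83 in wild-type and 0.44, -0.96, -0.66 and -0.30 in PRA transgenic glands. PRA transgenic replicate 1 was the highest, and replicate 2 lay just below the highest wild-type value, so the groups overlapped by 1 array. The log2 fold change was 1.07 (2.10-fold, standard error 0.36, unadjusted P = 0.0205, limma adjusted p = 0.463). The probe (chr4:125991441-125991500, plus strand) passed the filter through the PRA transgenic arrays, being above background on 2 of 3 wild-type arrays. After normexp background correction the change was 0.28, and the gene no longer passed by the methods' t-test or without wild-type replicate 2 or 3. Its partner chain gene Col8a1 was at -3.60, -1.84 and -3.73 in wild-type and -2.41, -3.20, -3.25 and -0.71 in PRA transgenic glands (log2 fold change 0.66, standard error 0.73). Endothelial markers had a mean log2 ratio of 4.88 to 5.00 in wild-type and 4.71 to 5.14 in PRA transgenic arrays, with 8 of 8 above background on all arrays. Of the 8, 5 had a positive and 3 a negative log2 fold change (-0.55 to 0.78, median 0.09). The highest, Emcn, was the 1 that passed the threshold. Their part in the Col8a2 value was not tested.

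Col20a1, a fibril-associated collagen, had the lowest P of the family and a small change. Its log2 ratio was -1.69, -1.67 and -1.92 in wild-type and -1.42, -1.03, -1.13 and -1.09 in PRA transgenic glands. The groups were tight and did not overlap. The log2 fold change of 0.59 (1.51-fold, standard error 0.14, unadjusted P = 0.00398, limma adjusted p = 0.379) lies next to the 1.5-fold limit, which it missed in Cy5 alone (0.54), after quantile normalization (0.52), after normexp (0.47), with the replicate number as a block (0.56) and in 4 of the 7 fits with 1 array left out. The probe, at chr2:180752070-180752129 on the plus strand, was above background in both channels on all 7 arrays.

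Col12a1, the fibril-associated collagen that binds type I fibrils in tissue under tension, was the 1 collagen gene that passed in the lower direction. Its log2 ratio was -2.11, -1.93 and -2.07 in wild-type and -2.48, -2.24, -2.93 and -2.96 in PRA transgenic glands. The wild-type values were close together, and replicates 3 and 4 were the lowest of the PRA transgenic arrays. The log2 fold change was -0.62 (standard error 0.20, unadjusted P = 0.0176, limma adjusted p = 0.462) at chr9:79446895-79446954, minus strand. A second tested probe (chr9:79478530-79479319) had a log2 fold change of 0.15, with Cy5 above background on 3 of 3 wild-type but 1 of 4 PRA transgenic arrays. The gene did not pass in Cy5 alone (-0.57), after normexp (-0.34), with the replicate block (-0.52) or by the median of both probes (-0.23), or without wild-type replicate 2 (-0.57). It also missed the threshold without PRA transgenic replicate 3 (-0.53) or 4 (-0.52).

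**Figure D2:**
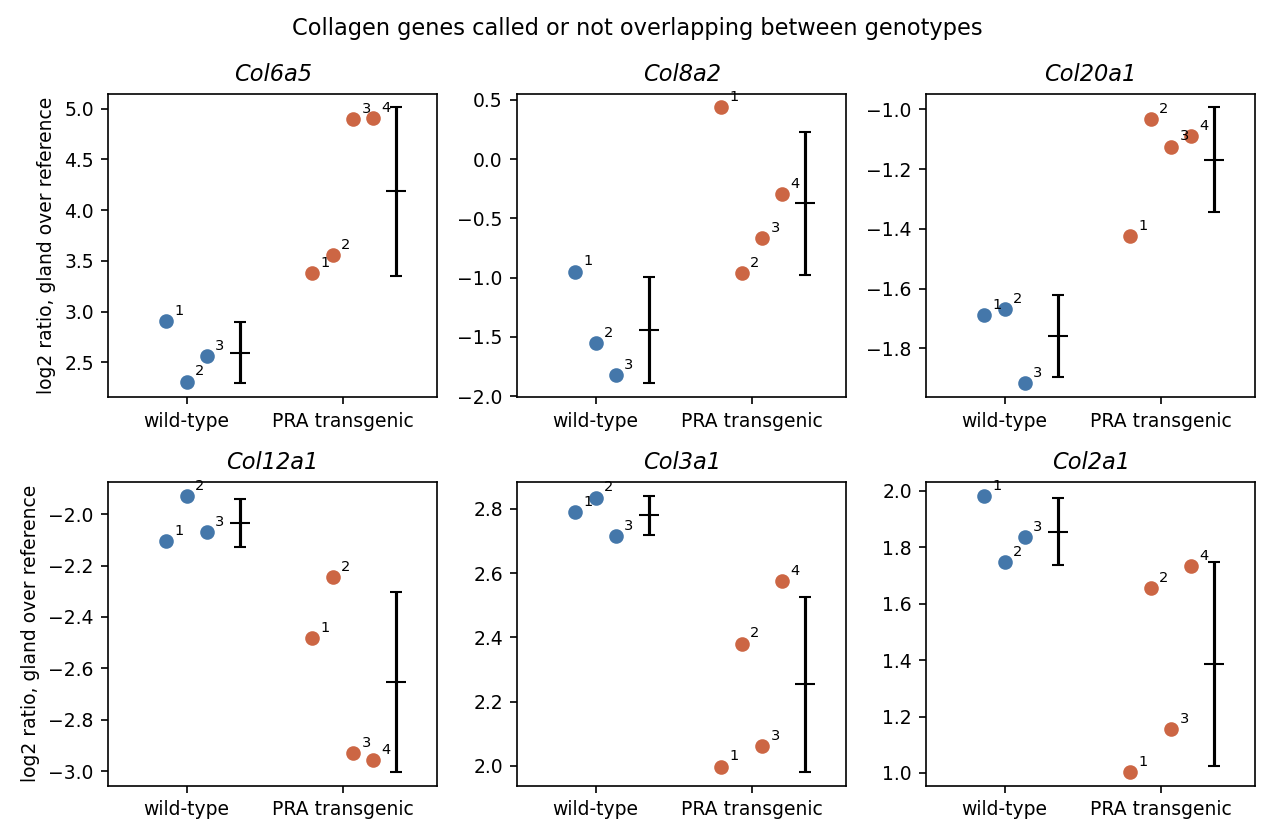
Log2 ratio of gland over reference (y axis, a scale for each gene) in the 3 wild-type (blue) and 4 PRA transgenic (orange) arrays for the 6 collagen genes that passed the threshold or did not overlap, each point numbered by its replicate, with the mean and SD in black. Col6a5 and Col20a1 lay higher and Col12a1, Col3a1 and Col2a1 lower in every PRA transgenic array, and Col8a2 overlapped.

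Among the fibrillar collagens, 10 genes were tested, 0 passed the threshold and 6 had a negative log2 fold change, with a median of -0.11. Col3a1, which encodes the chain of type III collagen, the fibril of soft and elastic stroma, was at 2.79, 2.84 and 2.71 in wild-type and 2.00, 2.38, 2.06 and 2.57 in PRA transgenic glands. The groups did not overlap. Its log2 fold change of -0.53 (standard error 0.17, unadjusted P = 0.0159, limma adjusted p = 0.453) was below 1.5-fold, and Cy5 alone gave -0.36 with a reference change of 0.17. With the replicate number as a block, and without PRA transgenic replicate 4, it was -0.63 and passed the threshold. Calls over all probes also rose there, from 1552 of 34288 to 2444 and 2334. The brightest Col3a1 probe lies at chr1:45405589-45405648 on the plus strand. The 2 other tested probes of the gene, at chr1:45373784-45373843 and chr1:45381765-45381824, had log2 fold changes of 0.44 and 0.34. They are assigned to other Ensembl transcripts, and neither passed, but their sign was opposite.

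Type I collagen, the main fibril of skin, tendon and breast stroma, is made of the chains of Col1a1 and Col1a2. The log2 ratio of Col1a1 was 0.41, 0.89 and 0.41 in wild-type and 0.02, 0.49, -0.12 and 0.62 in PRA transgenic glands. Col1a2 was at 0.76, 0.56 and 0.35 in wild-type and 0.22, 0.53, 0.12 and 0.84 in PRA transgenic glands. For both genes PRA transgenic replicates 1 and 3 were the lowest arrays, and replicates 2 and 4 lay within the wild-type range or above it. Log2 fold changes were -0.32 (95% interval -0.86 to 0.23) and -0.12 (-0.61 to 0.36). The Col1a1 probe was spotted 10 times on each array, and the SD between those spots was 0.0296 to 0.0533, against 0.28 and 0.36 between animals of each genotype. Repeat spots thus differed less than animals did. A dimmer Col1a2 probe (A_55_P2715501) had a log2 fold change of -0.47 (unadjusted P = 0.0309, limma adjusted p = 0.504) without overlap of the genotypes, and another one of 0.14.

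Type V collagen initiates fibrils and sets their diameter. Col5a1 was at 0.10, 0.37 and 0.09 in wild-type and -0.28, 0.30, -0.07 and 0.41 in PRA transgenic glands (log2 fold change -0.10, standard error 0.20). Col5a2 was at 1.00, 1.13 and 0.98 and at 0.92, 1.36, 1.21 and 1.05, a log2 fold change of 0.10 (standard error 0.14). The chains differed in sign, and neither change exceeded the spread between animals. Of the remaining fibrillar genes Col2a1, the chain of type II collagen of cartilage, was at 1.98, 1.75 and 1.84 in wild-type and 1.00, 1.66, 1.16 and 1.73 in PRA transgenic glands. Its genotypes did not overlap, with the nearest arrays at 1.75 and 1.73, and the log2 fold change was -0.47 (standard error 0.21, unadjusted P = 0.0593, limma adjusted p = 0.577). In Cy5 alone it was -0.59 and passed the threshold. Col5a3, Col11a1, Col11a2 and Col27a1 had log2 fold changes from -0.37 to 0.53, none with a P under 0.05.

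Animals of the same genotype also varied across 8 chains of collagens I, III, V and VI, those of Col1a1, Col1a2, Col3a1, Col5a1, Col5a2, Col6a1, Col6a2 and Col6a3. Of these Col3a1 did not overlap between the genotypes and the other 7 did. Centered on the mean of each gene over the 7 arrays, wild-type replicate 2 was above 0 for all 8 genes, by 0.0346 to 0.61, and PRA transgenic replicate 1 was below 0 for all 8, at -0.48 to -0.0398. PRA transgenic replicate 4 was above 0 for 7 of the 8, Col5a2 being the exception at -0.0417. Over all 38 collagen genes PRA transgenic replicate 1 was the lowest array for 15 and PRA transgenic replicate 4 the highest for 13, while wild-type replicate 3 was the highest for 1. Fibroblast markers did not show the same order, with mean log2 ratios of 3.32, 3.02 and 2.67 in wild-type and 2.96, 2.83, 2.93 and 3.22 in PRA transgenic arrays, and 0 of the 10 passed the threshold. Since whole glands were used, fewer cells of a type and less RNA per cell cannot be told apart.

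**Figure D3:**
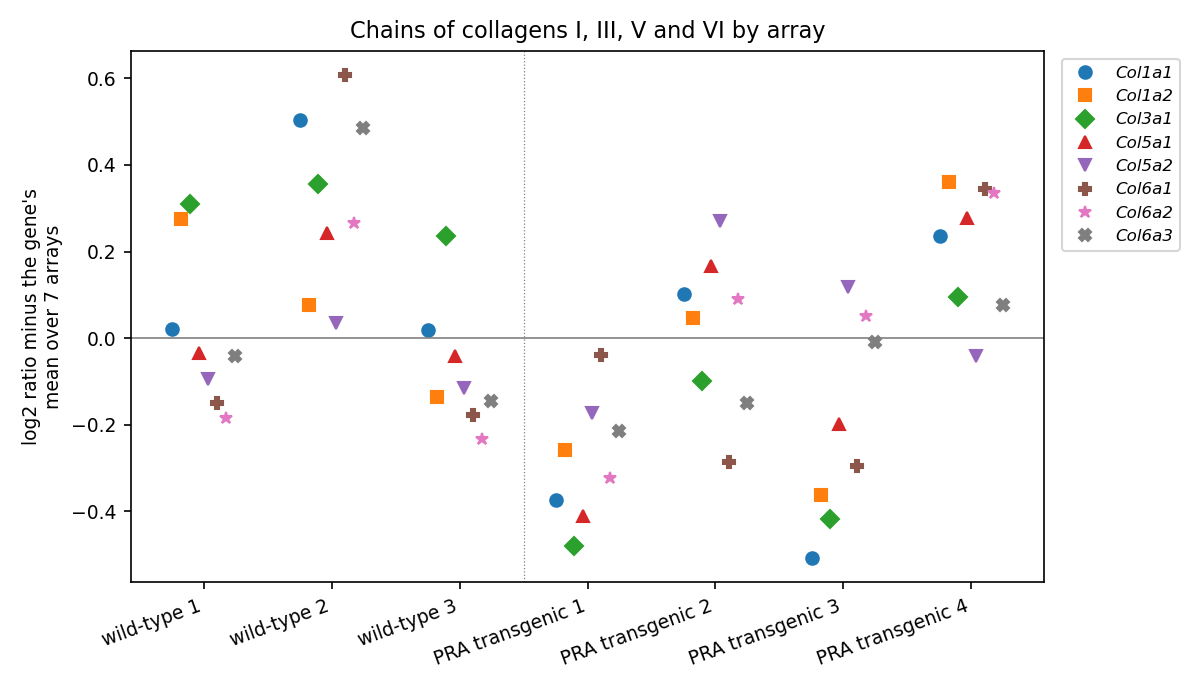
Log2 ratio minus the gene's mean over the 7 arrays (y axis) for Col1a1, Col1a2, Col3a1, Col5a1, Col5a2, Col6a1, Col6a2 and Col6a3 in each array (x axis, 1 animal per array), with genotypes parted by the dotted line. Wild-type replicate 2 lay above 0 and PRA transgenic replicate 1 below 0 for all 8 genes.

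Type IV collagen is the network of basement membranes, under the myoepithelium, around fat cells and along vessels. Its 2 common chains are encoded by Col4a1 and Col4a2, which lie head to head. In RefSeq of GRCm38.p6 their promoter windows, from 250 bases before to 50 after the start, share 78 bases, and the starts are 21 bases apart. Col4a1 was at 1.50, 2.08 and 1.80 in wild-type and 2.16, 2.36, 2.10 and 2.07 in PRA transgenic glands. Col4a2 was at 1.11, 1.59 and 1.25 in wild-type and 1.50, 1.58, 1.47 and 1.57 in PRA transgenic glands. For both genes wild-type replicate 1 was the lowest array and wild-type replicate 2 lay within or above the PRA transgenic values. The log2 fold changes were 0.38 (95% interval -0.01 to 0.76, unadjusted P = 0.0541, limma adjusted p = 0.564) and 0.21 (-0.13 to 0.55). The chains of more restricted basement membranes, Col4a4, Col4a5 and Col4a6, had log2 fold changes of -0.47, -0.19 and 0.02, and 0 of the 5 genes of the class passed. For Col4a4 the reference was dim on all 7 arrays and changed by 0.62, while Cy5 alone changed by 0.14, so the sign of its change is not settled. A dimmer Col4a5 probe had a lower ratio in every PRA transgenic array (log2 fold change -0.46, limma unadjusted P = 0.118). Its Cy5 alone changed by -0.19 and its reference by 0.28.

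Type VI collagen forms beaded filaments that link cells to the fibrils, and its main chains are those of Col6a1, Col6a2 and Col6a3. Col6a1 was at -0.14, 0.62 and -0.16 in wild-type and -0.02, -0.27, -0.28 and 0.36 in PRA transgenic glands. Col6a2 was at -0.16, 0.29 and -0.21 and at -0.30, 0.11, 0.07 and 0.36. Col6a3 was at 0.96, 1.49 and 0.86 and at 0.79, 0.85, 0.99 and 1.08. Wild-type replicate 2 was the highest or the second highest array in each of them, and the genotypes overlapped throughout. The log2 fold changes of -0.16 (standard error 0.25), 0.09 (0.20) and -0.17 (0.18) stand beside that of 1.59 for Col6a5. Col6a4, dim in PRA transgenic glands (above background on 2 of 4 arrays), had -0.68 (0.46). It passed the filter only through the wild-type arrays, so its direction is no support for a contrast with Col6a5. The difference between Col6a5 and the other chains was not tested.

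Col7a1, the anchoring fibril that ties epithelial basement membranes to the stroma, was at 0.77, -0.12 and 0.84 in wild-type and 0.33, 0.92, 1.08 and 1.56 in PRA transgenic glands (log2 fold change 0.48, standard error 0.34). Col17a1, the transmembrane collagen of hemidesmosomes in basal epithelium, was at 4.33, 3.80 and 4.05 and at 3.21, 4.25, 3.58 and 4.02 (log2 fold change -0.29, standard error 0.27, -0.31 in Cy5 alone with the reference dim on all arrays). Both overlapped between the genotypes. Basal epithelial markers had mean log2 ratios of 2.51 to 3.00 in wild-type and 2.79 to 2.99 in PRA transgenic arrays, and 0 of the 8 passed.

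The multiplexins are proteoglycan-like collagens of basement membrane zones whose ends can be released as endostatin-like fragments. Col15a1 was at 5.45, 4.89 and 5.39 in wild-type and 5.57, 4.68, 4.77 and 4.46 in PRA transgenic glands. Replicate 1 was the highest of all arrays and the other PRA transgenic arrays were the lowest. The reference was dim on all 7 arrays, and the log2 fold change of -0.37 (standard error 0.29) was 0.09 in Cy5 alone, so its sign is not settled. Without PRA transgenic replicate 1 it was -0.61 and passed the threshold. Col18a1 was at 0.86, 1.32 and 0.62 and at 0.74, 0.88, 0.72 and 1.05, a log2 fold change of -0.09 (standard error 0.19).

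Of the 8 fibril-associated genes tested, Col20a1 and Col12a1 passed in opposite directions and 6 did not pass. Col14a1, which binds the fibril surface and is abundant in fibroblasts, was the most even gene of the class in wild-type and an uneven one in PRA transgenic glands. Its log2 ratio was 1.76, 1.80 and 1.74 in wild-type and 0.57, 2.67, 1.61 and 3.39 in PRA transgenic glands, a range of 2.82 between PRA transgenic replicates 1 and 4 against an SD of 0.03 in wild-type. The log2 fold change of 0.29 (standard error 0.62) lies inside that range, and whether the spread differs between genotypes was not tested. The type IX chains, which decorate cartilage fibrils, also varied between animals. Col9a1 was at 6.14, 6.38 and 7.46 in wild-type and 4.78, 5.88, 4.33 and 7.84 in PRA transgenic glands, with the reference dim on all arrays. Its log2 fold change was -0.95 (standard error 0.83), and -0.76 in Cy5 alone. Col9a2 and Col9a3 had log2 fold changes of -0.07 and 0.32, and PRA transgenic replicate 1 was the lowest array for both.

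Where a gene had several probes, they often disagreed. Of the 17 genes with more than 1 tested probe, 9 had probes with log2 fold changes of both signs. Over all 61 probes 3 passed in the higher and 1 in the lower direction (6.56%, against 4.53% of all 34288 probes, higher in 1.94% and lower in 2.59% of them), and they were the brightest probes of the same 4 genes. The genotypes did not overlap for 2 probes in the higher and 5 in the lower direction, against 5.41% and 4.51% of all probes, together 9.93%.

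**Figure D4:**
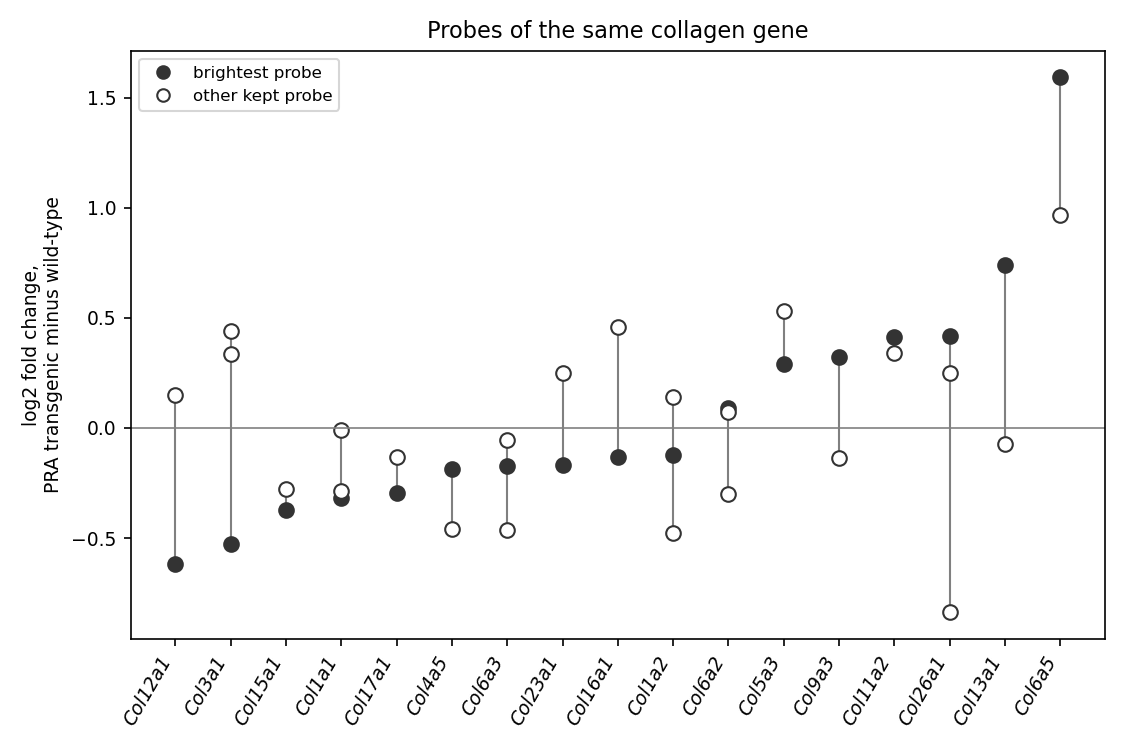
Log2 fold change, PRA transgenic minus wild-type (y axis), of each tested probe of the 17 collagen genes with more than 1 such probe (x axis, ordered by the brightest probe, filled). Open circles are the other probes, and in 9 genes the probes lie on both sides of 0.

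The genes that process, cross-link and bind collagen were taken from lists of enzymes, chaperones and receptors. Of 40 listed genes 37 were tested, and 3 were lower and 0 higher in PRA transgenic glands (8.11% lower, against 2.55% of all genes, and 0 higher, against 1.52%; unadjusted P under 0.05 in 3 by limma). Counted by probe, the direction was not one-sided. Of the 70 probes tested for these genes 3 passed lower and 2 higher, against 2.59% and 1.94% of all probes. The 2 higher ones were a dimmer probe each of Colgalt1 (log2 fold change 0.65, limma adjusted p = 0.405) and Serpinh1 (0.70, limma adjusted p = 0.534), named after their values were seen. The genotypes did not overlap for 1 of the 70 probes in the lower and 3 in the higher direction, against 4.51% and 5.41% of all probes. The median log2 fold change of the 37 genes was -0.09. All 3 lower genes belong to the modifying enzymes of the endoplasmic reticulum, of which 18 were tested, 11 with a positive and 7 with a negative log2 fold change.

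P4ha2, a catalytic subunit of prolyl 4-hydroxylase, was at -1.55, -1.60 and -2.33 in wild-type and -3.07, -2.48, -2.22 and -2.95 in PRA transgenic glands (log2 fold change -0.85, standard error 0.28, unadjusted P = 0.0183, limma adjusted p = 0.462). Plod2, the lysyl hydroxylase that acts on collagen telopeptides, was at -2.13, -2.43 and -2.38 and at -2.41, -4.05, -3.28 and -3.05 (log2 fold change -0.89, standard error 0.35, unadjusted P = 0.0396, limma adjusted p = 0.530). For both the reference was above background on all 7 arrays and Cy5 alone gave a like value, -0.85 and -0.86. Each overlapped between the genotypes by 1 array. Colgalt2, which adds galactose to hydroxylysine, was at 3.63, 3.94 and 3.82 and at 2.54, 2.68, 2.94 and 3.50. Its genotypes did not overlap (log2 fold change -0.88, standard error 0.24, unadjusted P = 0.00761, limma adjusted p = 0.410), but the reference was dim on all arrays and changed by 0.64, while Cy5 alone changed by -0.24.

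Some further members of the lists did not pass by their brightest probe. P4ha1, the other main prolyl hydroxylase subunit, had a log2 fold change of -0.12 (95% interval -0.53 to 0.29), and Serpinh1, the collagen chaperone Hsp47, one of -0.11 (-0.55 to 0.34), although a dimmer Serpinh1 probe passed at 0.70. Crtap, a partner of the prolyl 3-hydroxylase and named after its values were seen, did not overlap between the genotypes and was higher in the PRA transgenic arrays by 0.22 on the log2 scale, short of the threshold. Lox, which starts the cross-linking of fibrils, was at -2.39, -1.57 and -2.17 in wild-type and -2.08, -2.46, -2.71 and -2.19 in PRA transgenic glands (log2 fold change -0.32, -0.88 to 0.25). Of the 5 lysyl oxidase genes and the 6 propeptidase and enhancer genes tested 0 passed. Nor did any of the 8 collagen receptor genes tested. The discoidin domain receptors, tyrosine kinases that sense fibrillar collagen, had log2 fold changes of opposite sign, -0.51 for the epithelial Ddr1 (standard error 0.26, limma adjusted p = 0.618) and 0.57 for the stromal Ddr2 (standard error 0.33, limma adjusted p = 0.661), and both overlapped between the genotypes.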

How the data were processed

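Total RNA of 7 glands, 1 animal per array, was measured on 2-color Agilent arrays without dye swap. The authors deposited scanner output of Agilent Feature Extraction (12.0 in the submitters' processing notes), with intensity values that the software had background-subtracted, detrended and dye-normalized within each array, with surrogates for dim spots. The authors also deposited a table of log2 ratios centered on each probe's median over the arrays (100% of values within 0.01 of that, computed here).

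The log2 ratio of processed Cy5 to Cy3 was averaged over the spots of each probe, leaving out control spots and outliers. Of 56605 probes 34288 were kept, those marked well above background in Cy5 throughout 1 genotype or both. Genotypes, taken from the labels, were compared with lmFit and eBayes of limma 3.58.1 (R 4.3.3), with Benjamini-Hochberg adjustment over all kept probes. Intervals are 95% limma intervals. The threshold was an unadjusted P under 0.05 and 1.5-fold. For a gene the brightest kept probe was used. Spots of collagen probes were not saturated (0), and precision is set by how few arrays there were. The fit was checked on simulated data. The members, gene lists and named genes were chosen with earlier results of these data known. Named are 16 collagens of the main classes (Col1a1, Col1a2, Col3a1, Col5a1, Col5a2, Col4a1, Col4a2, Col6a1, Col6a2, Col6a3, Col7a1, Col12a1, Col14a1, Col15a1, Col17a1 and Col18a1), every collagen past the threshold or without overlap, listed pathway genes past the threshold, and Lox, Serpinh1, P4ha1, Ddr1 and Ddr2. Other genes were named after their values were seen. Alternatives were normexp with offset 50 and loess, the deposited log2 table, no filter or stricter filters on dim probes, Cy5 alone (scaled to the 75th percentile of the array), quantile normalization, the methods' t-test, an intensity trend, the replicate block, the median over probes, and each array left out. Positions of probes were taken from the files (mm9), and no annotation of that build was used here. Collagen symbols matched RefSeq of GRCm38.p6 for 44 of 44 genes, with a promoter entry for 35. A slide block had no meaning with 1 slide. Marker lists covered fibroblasts, basal and luminal epithelium, endothelium, white adipocytes, skeletal muscle, macrophages and Schwann cells.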

Additional observations from a re-analysis of the deposited data

Results flagged for a closer look

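The 4 PRA transgenic arrays were examined for 1 array apart from the other 3 in 42 measures, the log2 ratios of the 20 named collagen genes and the means of 22 gene classes and lists, and 3 stood out, where chance gives about 2.1. The multiplexins had a gap over range of 0.922, with PRA transgenic replicate 1 at 3.16 and the other PRA transgenic arrays at 2.75 to 2.78, and wild-type arrays at 3.00 to 3.16. The endothelium markers had 0.925, with PRA transgenic replicate 2 at 4.71 and the others at 5.11 to 5.14. The skeletal muscle markers had 0.921, with PRA transgenic replicate 4 at 3.12 and the others at -0.14 to 0.12. PRA transgenic replicate 4 was also the highest array for Col6a5, whose log2 fold change without it was 1.35.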

How the results depend on the processing

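Over 18 alternatives, 1 of them chosen after seeing the data (a Cy5 signal above background on each of the 7 arrays), 318 of 355 log2 fold changes of the 20 named collagen genes kept their direction and side of the threshold. Most of the 20 had not passed, and for them this means staying short of the threshold. Among those that had passed, Col12a1 kept both in 11 of 18, Col20a1 in 10 of 18 and Col8a2 in 12 of 16. Col6a5 passed in all 17 alternatives in which it was tested (0.96 to 1.86). The count of collagen probes at an adjusted p under 0.05 was 0 in every one. Collagen genes and probes higher in PRA transgenic glands (both 3) were 1 and 1 with normexp and with both channels above background, and from 1 to 5 genes and 1 to 6 probes when single arrays were left out. Without PRA transgenic replicate 1 they were 5 and 6, and without wild-type replicate 3 they were 1 and 1. Lower genes and probes (both 1) were 0 and 0 with normexp and 3 and 3 in Cy5 alone. By the median over probes 0 genes were lower. With each array left out they were 0 to 3 genes and 0 to 4 probes: 0 genes without wild-type replicate 2, 3 genes and 4 probes without wild-type replicate 3, 3 and 3 without PRA transgenic replicate 1, 0 and 0 without PRA transgenic replicate 3, and 2 and 3 without PRA transgenic replicate 4. Lower processing and receptor genes (3) were 1 to 3 with each array left out, 1 without wild-type replicate 1 or 2, and 2 to 4 under the other alternatives. Calls in either direction over all probes moved as well, from 1552 of 34288 to 328 with normexp and 1170 in Cy5 alone. With each array left out they ran from 1382 to 2334. With both channels above background 468 of 24664 probes passed, and Col6a5 and Col8a2 were not tested.

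With the replicate number as a block, lower genes and probes were 3 and 3. Calls in either direction over all 34288 probes rose from 1552 to 2444 with the block. They rose to 2334 without PRA transgenic replicate 4. Deviations of arrays with the same number correlated at 0.0997, -0.297 and 0.0362, which gave no sign of pairing by number. Whether animals of the same number were matched cannot be told from these values. PRA transgenic replicate 4 has no partner and drops out of the contrast in that fit. Col3a1 passed with the block and without PRA transgenic replicate 4 (both -0.63), and Col2a1 in Cy5 alone (-0.59). Col15a1 passed without PRA transgenic replicate 1 (-0.61). Signs that turned belong to genes that did not pass in the main fit. In Cy5 alone they were those of Col14a1 (-0.00976) and Col15a1 (0.0922), and after quantile normalization that of Col18a1 (0.0223). With the block they were those of Col14a1 (-0.15) and Col6a2 (-0.0102). By the median over probes they were those of Col3a1 (0.34) and Col6a2 (-0.00723). With each array left out Col14a1 ran from -0.15 to 0.79, Col18a1 from -0.24 to 0.11, Col5a1 from -0.20 to 0.0265, Col6a1 from -0.30 to 0.10, Col6a2 from -0.0102 to 0.25 and Col6a3 from -0.30 to 0.0194. The cause was not tested. Dim signal limits Col8a2, Col6a4, Col11a2 and Col22a1, whose Cy5 was not above background on all arrays.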

Other observations

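Several collagens best known from cartilage were measured in the gland. Col2a1, Col9a1, Col9a2 and Col9a3 were above background in Cy5 on all 7 arrays. A list of 8 chondrocyte genes, written after the data were seen, was mixed: Acan, Matn1, Matn3 and Hapln1 were above background on 0 arrays, Epyc on 4, and Comp, Chad and Sox9 on all 7. Comp, a matrix protein of cartilage and tendon, was at 2.29, 2.74 and 0.76 in wild-type and 1.42, 1.36, 2.17 and 1.83 in PRA transgenic glands, and Chad at 2.08, 1.42 and 2.85 and at 2.55, 2.01, 2.14 and 2.34. The log2 fold changes of Comp, Chad and Sox9 were -0.23, 0.15 and -0.04, and none passed the threshold. A second Col9a1 probe, at the other end of the gene (chr1:24201545-24201604, against chr1:24259298-24259357 for the brightest), was above background on 3 of 7 arrays.

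The spread between animals was widest for Col9a1 (range 3.51 on the log2 scale), Col8a1 (3.02), Col14a1 (2.82) and Col9a3 (2.76). PRA transgenic replicate 4 was the highest array for the first 3 of these, and PRA transgenic replicate 2 for Col9a3. The skeletal muscle markers were high on PRA transgenic replicate 4 and on wild-type replicates 1 and 3, and their part in these values was not tested.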
